A study of Homo sapiens with 10 samples.

Results

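The first week of 8-br-cAMP treatment was examined by bulk RNA-seq, by setting the libraries of day 23 against those of day 16 of a protocol that turns human embryonic stem cells into thyroid organoids. The comparison uses 4 of the 10 libraries of the series, 2 for each day, and every gene that reached 5 counts in 2 or more of the 10, which left 21014 of 28265 genes. The cells came from ESIBIe003-A-6, a line derived from HES3 in which GFP occupies one *NKX2-1* allele and a lentiviral vector carries doxycycline-inducible *NKX2-1* and *PAX8* sequences. The transduced cells were selected as clones, and all libraries come from this line. It was grown as embryoid bodies in Matrigel drops. Both groups had received Activin A and then a pulse of doxycycline, and had been kept in basal medium with fetal bovine serum until day 16. The day 23 group then received 8-br-cAMP, a cell-permeable analogue of cAMP. The sample names mention cAMP at both days, whereas in the study's schedule the day 16 cells had not yet received it, and that schedule is followed here. At each day the organoids of several wells were pooled, digested with dispase and collagenase, dissociated with a trypsin-type enzyme and sorted for NKX2-1GFP+ cells. No day 23 library of cells left in basal medium was analysed here, so 7 more days in culture and the medium cannot be told apart as the source of any difference. In RNA from a sorted population, fewer cells of a type and less RNA per cell cannot be told apart either.

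In thyroid cells, binding of TSH to its receptor raises cAMP, which releases the catalytic subunits of protein kinase A (PKA). PKA phosphorylates CREB, a transcription factor that binds cAMP response elements with the core sequence TGACGTCA. The pathway is known to drive thyroid growth and hormone synthesis, and it is damped by phosphodiesterases, which break cAMP down, and by inhibitory products of its own target genes. When oxygen falls, HIF factors act on a different element, with the core ACGTG, that is found near many genes of glucose uptake and glycolysis.

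Promoter windows of RefSeq (GRCh38.p14, 250 bases before to 50 bases after each gene's start) were searched on both strands for these 2 cores, neither of which contains the other. The shorter TGACG, which lies within TGACGTCA, was searched for too. TGACGTCA reads the same on both strands and lay in 540 of 27305 windows (1.98%). Of the 29 tested genes in a list of known cAMP and CREB targets, 25 had a window and 5 of these held it, namely *SST*, *VGF*, *DUSP1*, *CGA* and *AREG*. Of these, *DUSP1*, *CGA* and *AREG* were not called between the days. Such a list is drawn in part from genes studied for this element, so its share is a description only. The element also lay in the windows of *FN1*, *PDE7B* and *LDHA*, and in that of *PDE4A*, a phosphodiesterase gene that was not called. Over all called genes it lay in 24 of 917 windows (2.62%) of those higher and in 25 of 836 (2.99%) of those lower at day 23, and in 2.68% of the windows of genes tested. TGACG alone lay in 28.1% of the windows of genes called higher, 33.4% of those called lower and 30.2% of those tested. It lay in 56% of the windows of the cAMP and CREB targets and in 48.8% of those of ribosomal protein genes. Windows were found for only 917 of 1176 genes called higher and 836 of 1120 called lower, which makes these comparisons void as tests. The stretches below are chosen examples from genes named in the results, 4 called higher and 1 called lower. The call of *PDE7B* was lost with DESeq2 and without day 16 replicate 1 or day 23 replicate 2. Capitals mark TGACGTCA in each stretch. Each is given 5′ to 3′ on the strand of its gene and ends before the transcription start.
SST (chr3:187670408-187670467, − strand, motif from position −47): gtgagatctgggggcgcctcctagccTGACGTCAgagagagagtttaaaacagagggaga
VGF (chr7:101165615-101165674, − strand, motif from position −79): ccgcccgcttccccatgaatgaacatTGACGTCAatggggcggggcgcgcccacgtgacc
PDE7B (chr6:135851520-135851579, + strand, motif from position −155): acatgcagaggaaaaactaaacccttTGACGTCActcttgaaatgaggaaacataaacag
FN1 (chr2:215436218-215436277, − strand, motif from position −183): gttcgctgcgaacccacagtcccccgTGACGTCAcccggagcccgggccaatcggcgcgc
LDHA (chr11:18394486-18394545, + strand, motif from position −51): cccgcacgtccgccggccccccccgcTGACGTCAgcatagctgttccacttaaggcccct
ACGTG is shorter, reads as CACGT when it lies on the opposite strand, and was found in 5900 of the 27305 windows (21.6%). It lay in 24.3% of the windows of genes tested, and in 11 of the 25 windows (44%) of a list of glycolysis and hypoxia response genes. It was as frequent in the cAMP and CREB targets, at 12 of 25 windows (48%), and lay in 16 of the 41 windows (39%) of ribosomal protein genes, so it is not particular to the hypoxia list. Where it stands within CACGTG it also forms an E-box, the element of other transcription factors. In the next 4 stretches, from glycolysis and hypoxia genes that fell, capitals mark this core in either orientation.
LDHA (chr11:18394464-18394520, + strand, motif from position −73): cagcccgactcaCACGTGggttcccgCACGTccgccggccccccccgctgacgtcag
BNIP3 (chr10:131982026-131982082, − strand, motif from position −133): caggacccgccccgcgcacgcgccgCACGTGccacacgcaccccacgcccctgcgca
HK2 (chr2:74834053-74834109, + strand, motif from position −48): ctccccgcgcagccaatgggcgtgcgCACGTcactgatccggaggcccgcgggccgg
GAPDH (chr12:6535158-6535214, + strand, motif from position −80): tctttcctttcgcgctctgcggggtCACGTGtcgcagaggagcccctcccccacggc
A match says only that these letters lie in the window, and binding was not measured.

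The day 16 libraries held 7550260 and 8186969 counts and the day 23 libraries 8610133 and 8318446. Levels are given as CPM, which scales each library to the same total with TMM factors, and 3 counts correspond to 0.380 and 0.369 CPM at day 16 and 0.333 and 0.343 CPM at day 23. This floor covers counting error only, since reads without molecular identifiers are not independent molecules. Thyroid markers were looked at first. No unsorted or GFP-negative library was analysed here, so the purity of the sort was not tested. *NKX2-1* was at 90.03 and 83.9 CPM at day 16 and 143 and 129 CPM at day 23, and *PAX8* at 728 and 572 and 502 and 518 CPM, although reads of the transgenes' coding parts cannot be separated from those of the endogenous genes. *TSHR*, the TSH receptor, was at 17.5 and 8.87 CPM and then 64.9 and 78.3 CPM, so thyroid markers were present in all 4 libraries. *NKX2-1* and *TSHR* were called higher by the test described next, the former not without day 23 replicate 1.

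Between the days, 2296 genes (10.9% of those tested) are termed called, having passed the quasi-likelihood test of edgeR at 0.05 after the adjustment of Benjamini and Hochberg. Of these, 1176 (5.6%) were higher and 1120 (5.33%) lower at day 23, and the adjusted p-values below are from this test. By size, 225 rose and 241 fell by at least 2 on the log2 scale. Over all genes tested, the median was −0.02 on that scale. Genes called higher took 8.59% of the CPM at day 16 and 14.9% at day 23, whereas genes called lower took 24.97% and then 14.9%. The 10 most abundant RNAs made up 11.7 and 12.99% of the counts at day 16, against 8.53 and 9.09% at day 23. Between 18974 and 20038 genes were detected per library. Both day 23 values lay on one side of both day 16 values in 2288 of the 2296 called genes, and also in 10154 of all 21014 genes tested (48.3%), so with 2 libraries a day the absence of overlap alone says little.

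**Figure D1:**
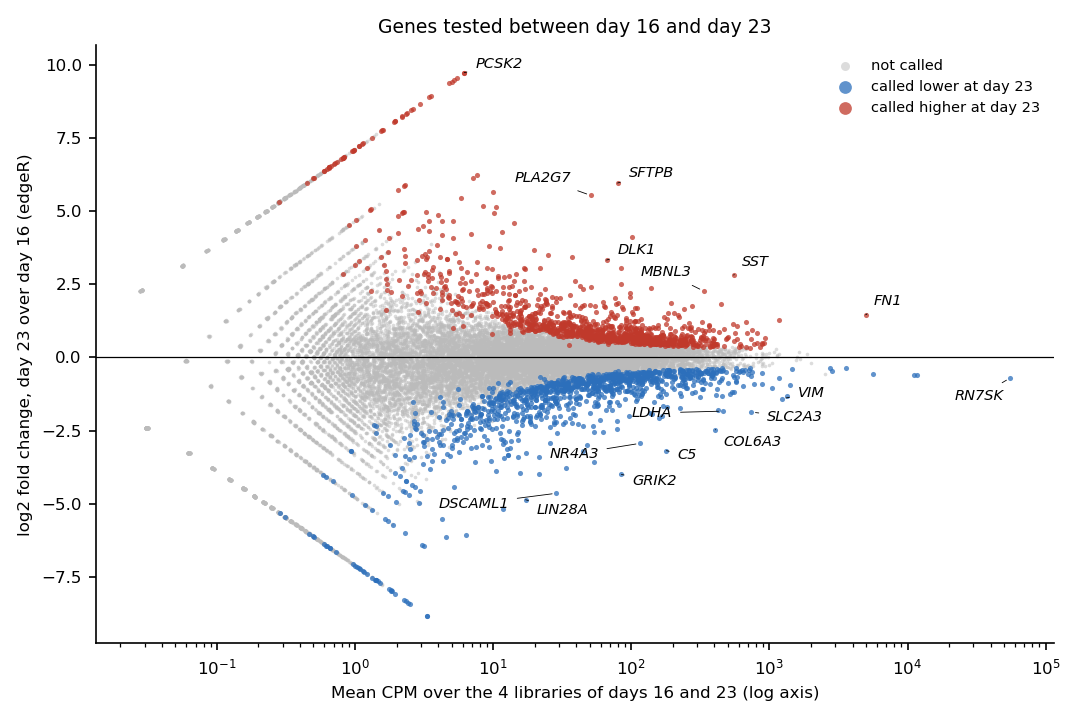
Each point is a gene tested between day 16 and day 23, with the mean CPM over the 4 libraries on a log x axis and edgeR's log2 fold change (day 23 over day 16) on the y axis. The 1176 genes called higher are red, the 1120 called lower are blue, and the diagonal lines of points at the left are genes with 0 counts at one day, whose fitted value is set by the prior count.

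The largest rises by fold were in genes that were silent or nearly so at day 16. By the rule for named genes, 15 genes were taken, and 5 of them, *PCSK2*, *FGG*, *ADGRF5*, *LINC00473* and *NYAP2*, had 0 counts in both day 16 libraries. *PCSK2*, a convertase that cleaves prohormones (chromosome 20, 17226107 to 17484578 of GRCh38), was at 11.3 and 13.4 CPM at day 23, at least 32.9-fold higher than the floor of 3 counts per library. *FGG*, which encodes the gamma chain of fibrinogen, was at 12.1 and 12.3 CPM, at least 32.6-fold higher. *LINC00473*, a long non-coding RNA known to be induced by cAMP and CREB in other cells, was at 9.42 and 11.5 CPM, at least 28-fold higher. At day 31 these 3 genes were at 51.3 and 37.4, 33.1 and 32.8 and 14.3 and 13.03 CPM.

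*SFTPB*, which encodes surfactant protein B of the lung (chromosome 2, 85657314 to 85668741), was at 3.55 and 1.48 CPM at day 16 and 165 and 149 CPM at day 23, and both day 23 libraries lay far above both of day 16. On the log2 scale it rose by 5.96 (SE, the standard error of the fit, 0.23, edgeR adjusted p = 9.5e-20), and it stood at 499 and 502 CPM at day 31. *PLA2G7*, an enzyme that inactivates platelet-activating factor, went from 2.28 and 1.97 to 105 and 94.3 CPM, with a log2 change of 5.54 (SE 0.30). The other genes of this group were lower in level. *G0S2*, an inhibitor of triglyceride lipase, rose from 0.254 and 0.862 to 20.9 and 19.9 CPM, and *SLC14A2*, a urea transporter, from 0.507 and 0.739 to 22.9 and 16.1 CPM. *ADGRF5*, an adhesion receptor known from lung surfactant control, went from 0 counts to 7.204 and 14.6 CPM, so its day 23 libraries differed between themselves as well. *NYAP2*, *IQCJ*, *FNDC1*, *C8B*, *APOL6*, *SERPINA1* and *GDF15* completed the 15.

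Among the 15 genes named for the most negative log2 fold changes, *LIN28A*, an RNA-binding protein that blocks let-7 maturation in stem cells (chromosome 1, 26410817 to 26429728), was at 39.8 and 26.6 CPM at day 16 and 1.11 and 1.14 CPM at day 23, with a log2 change of −4.86 (SE 0.73, edgeR adjusted p = 9.6e-06). *DSCAML1*, an adhesion molecule of neurons, went from 55.03 and 55.2 to 2.99 and 1.37 CPM, and *GRIK2*, a subunit of kainate receptors, from 167 and 153 to 10.42 and 9.49 CPM. *FBLN7*, a fibulin of the matrix, was at 15.8 and 9.11 CPM at day 16 and at 0 and 0.343 CPM at day 23, at least 37-fold lower. *ADAMTS20*, a secreted metalloprotease, and *HMCN2*, a hemicentin, went from 19.7 and 24.3 to 2.77 and 1.26 CPM and from 119 and 79.4 to 9.09 and 7.66 CPM. The long non-coding RNAs *LINC02656* and *LINC02649*, the first of which lies within the second on the same strand of chromosome 10, so that reads may be shared, fell from 28.7 and 17.1 to 0.333 and 0.915 CPM and from 33.5 and 24.998 to 1.995 and 1.71 CPM. *NKX1-2*, a homeobox gene, went from 54.3 and 71.7 to 6.54 and 2.52 CPM, and 37.7% of its exons overlap a gene on the opposite strand, so its value is uncertain without strand information. *TSG1*, *LOC90246*, *ZNF280D*, *SPSB4*, *NR4A2* and *DUSP5* were the rest, and the call of *TSG1* was lost with DESeq2 and without day 16 replicate 1 or day 23 replicate 1, and those of *LOC90246* and *SPSB4* without day 16 replicate 1.

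By absolute level, the largest rise was that of *FN1*, the gene of the matrix protein fibronectin (chromosome 2, 215360440 to 215436073). It was at 2804 and 2516 CPM at day 16 and 7387 and 7221 CPM at day 23, with a log2 change of 1.46 (SE 0.10, edgeR adjusted p = 1.8e-13). *SST*, which encodes the hormone somatostatin (chromosome 3, 187668912 to 187670394), rose from 120.3 and 154 to 1019.7 and 910.2 CPM, with a log2 change of 2.82 (SE 0.18, edgeR adjusted p = 1.6e-13). Promoter stretches of both genes, with TGACGTCA in capitals, are printed above. *UNC5C*, a netrin receptor, rose from 660.0 and 710.4 to 1739 and 1613 CPM, *MBNL3*, a splicing regulator, from 116 and 113 to 565 and 539.8 CPM, and *HSP90AA1*, a cytosolic chaperone, from 493 and 527 to 1011 and 939.6 CPM. *COL3A1*, *RANBP10*, *ZFP36L1* and *KLHL24* also belonged to the 10, as did *MIR12136*, a small RNA gene whose count is uncertain.

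The largest falls in level were in small structural RNAs. *RN7SK*, which holds the elongation factor P-TEFb inactive, went from 65307 and 71694 to 41974 and 41996 CPM, which is 6.82 and 7.11% of the counts at day 16 against 4.40 and 4.42% at day 23. *RMRP*, the RNA of the RNase MRP complex, went from 6642 and 6684 to 4601 and 4461 CPM. *RN7SL1*, the RNA of the signal recognition particle, and *RNU4-1*, a spliceosomal RNA, were called lower in the fit of all libraries but not with DESeq2 or without day 16 replicate 2, nor was *RN7SL1* without day 23 replicate 1, and members of these families share reads with near-identical copies. Among protein-coding genes, *PRTG*, the receptor protogenin of early embryos, fell from 1887 and 1922 to 757 and 782 CPM, *AHNAK*, a scaffold protein, from 1518 and 1303 to 642 and 739 CPM, and *SLC2A3*, a glucose transporter, from 1259.5 and 1065 to 317 and 318 CPM. *VIM*, the intermediate filament vimentin, fell from 1710.1 and 1872 to 662 and 684 CPM, with 24.6% of its exons overlapping a gene on the opposite strand. *NEAT1* and *EEF1A1* were the other 2, with log2 changes of −0.45 and −0.35, and the call of *NEAT1* was lost without day 23 replicate 2, and that of *EEF1A1* on leaving out day 16 replicate 2, either day 23 library or either day 31 library.

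Known targets of cAMP and CREB did not move one way. Of 29 tested members, 6 were called higher and 8 lower, against 5.6% and 5.33% of all genes, and the median log2 fold change was −0.09. These 2 shares are the background for each list count that follows. The members that rose were hormones, prohormones and phosphodiesterases, namely *SST*, *VGF*, *PDE4B* and *PDE4D*, and also *FOSL2* and *CRTC1*, the last of which was not called without day 16 replicate 2 or either day 23 library. *VGF*, a secreted precursor of neuropeptides, went from 2.16 and 1.48 to 10.5 and 16.1 CPM (log2 fold change 2.87, SE 0.53). *PDE4D*, a cAMP-specific phosphodiesterase (chromosome 5, 58969038 to 60522120), was at 102 and 109 CPM at day 16 and 312 and 288 CPM at day 23 (log2 fold change 1.503, SE 0.13, edgeR adjusted p = 2.1e-10). *PDE4B*, its paralogue, went from 5.199 and 2.34 to 29.1 and 31.8 CPM, with a larger log2 fold change of 3.01 (SE 0.33) at a lower level.

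The members that fell were mostly nuclear receptors and transcription factors of the immediate early kind. The 3 *NR4A* orphan receptors fell together. *NR4A1* was at 503 and 299 CPM at day 16 and 194 and 159 CPM at day 23, *NR4A2* at 46.9 and 34.4 and then 0.443 and 4.69 CPM, and *NR4A3* at 227 and 182 and then 23.9 and 29.5 CPM. Their log2 fold changes were −1.19, −3.99 and −2.94, and at day 31 *NR4A1* was at 276 and 271 CPM and *NR4A3* at 41.6 and 39.7 CPM. *RGS2*, which limits G protein signalling, fell from 42.7 and 43.5 to 7.65 and 8.803 CPM, and *KLF4*, a zinc finger factor, from 92.3 and 92.4 to 15.7 and 15.4 CPM. *FOSB*, *ATF3* and *PDE10A* were lower by less than 1 on the log2 scale. *CREM*, whose ICER products repress CREB targets, was not called, at 41.8 and 50.98 and then 31.1 and 33.4 CPM, and ICER transcripts have no count of their own here. *SIK1*, a target that restrains CREB coactivators, was listed at 0 in all 4 libraries. This need not mean absence, since the handling of reads that fit more than 1 place was not given.

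**Figure D2:**
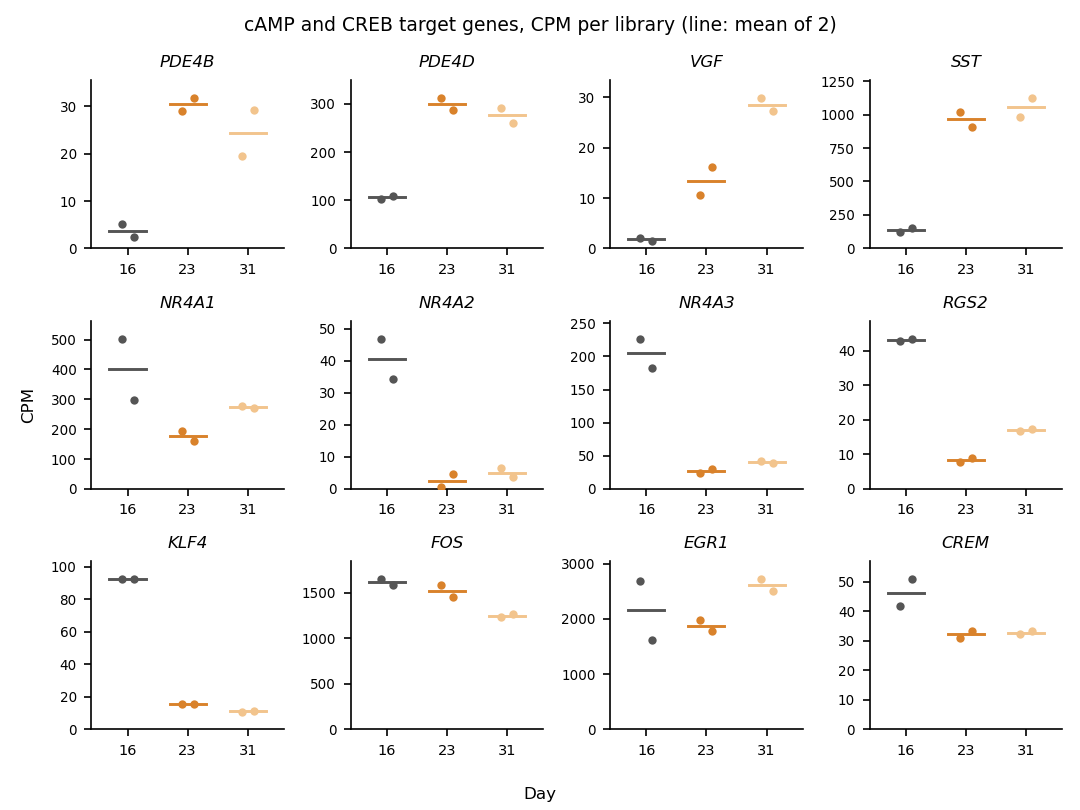
Each panel shows one cAMP or CREB target gene, with CPM on the y axis from 0 and a point per library at days 16, 23 and 31 on the x axis, and a line at the mean of 2 libraries. In the top row both day 23 points lie above both day 16 points, in the second row and for *KLF4* they lie below, and *FOS*, *EGR1* and *CREM* were not called.

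The enzymes around PKA differed in part. Among 16 tested cAMP phosphodiesterases, 3 were called higher and 3 lower, against 5.6% and 5.33% of all genes, and 5 were called higher without the filter on low counts. *PDE7B*, whose window holds TGACGTCA, went from 0 and 2.71 to 3.88 and 11.2 CPM, a call lost with DESeq2 and without day 16 replicate 1 or day 23 replicate 2. *PDE3B* fell from 16.99 and 33.6 to 9.199 and 8.92 CPM, which was not called without day 16 replicate 2, and *PDE4C* from 9.51 and 9.85 to 2.77 and 1.14 CPM, while *PDE10A* had a log2 fold change of −0.85. None of the 21 tested PKA subunits, inhibitor peptides and anchors was called by edgeR, at an unadjusted p under 0.05 for 4 of them, and DESeq2 called none, although 1 was called lower without day 16 replicate 1 and 1 with the replicate block. *PRKAR1A*, the regulatory subunit at the highest CPM, was at 461 and 473 and then 565 and 557 CPM.

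Genes that respond within minutes to stimuli or to tissue dissociation were compared because enzymatic dissociation and sorting can move them. Of 19 tested, 4 were called higher and 3 lower. *FOS* was at 1649 and 1582 CPM at day 16 and 1581 and 1452 CPM at day 23, and *EGR1* at 2689 and 1616 and 1981 and 1774 CPM, so both were abundant at both days and neither was called. The heat shock chaperone *HSPA8* rose from 346 and 332 to 738 and 748 CPM and *HSPH1* from 198 and 214 to 407 and 402 CPM, while *HSPA1A*, *HSPA1B*, *HSPE1* and *DNAJB1* were not called. *ZFP36* and *JUN* were the other 2 called higher, the latter with a log2 fold change of only 0.35 and not with upper-quartile factors or without day 16 replicate 2 or either day 23 library. *EGR3* fell from 28.5 and 15.8 to 3.44 and 4.23 CPM, a call not made by DESeq2. Without day 16 replicate 2, 5 members in place of 3 were called lower. The part of dissociation in the *NR4A*, *FOSB* and *ATF3* values was not tested.

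In the fit of all libraries, glycolysis and hypoxia response genes had the largest share called lower of the 50 lists examined. Of 28 tested, 20 were called lower and 1, *NDRG1*, higher, against 5.33% of all genes called lower, and the median log2 fold change was −1.14 against −0.02 for all genes. The summed level of the list was 6793 and 5835 CPM at day 16, 2712 and 2601 CPM at day 23, and 4139 and 4125 CPM at day 31. Transcripts of both main glucose transporters fell. *SLC2A3* (GLUT3, chromosome 12, 7919230 to 8019007) had a log2 fold change of −1.87 (SE 0.12, edgeR adjusted p = 1.4e-13), and *SLC2A1* (GLUT1) went from 413 and 264 to 173 and 157 CPM, a log2 fold change of −1.04. Of the enzymes that trap and split glucose, *HK2* (hexokinase 2) fell from 111 and 64.8 to 14.4 and 20.2 CPM and *GPI* from 209 and 165 to 114 and 117 CPM, while *HK1* was not called, at 40.3 and 46.7 and 40.9 and 38.4 CPM. The regulators *PFKFB3* and *PFKFB4*, which make fructose 2,6-bisphosphate, had log2 fold changes of −1.53 and −2.34.

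Most enzymes of the lower part of the pathway fell as well, while *ALDOA* and *ENO2* were not called. *TPI1*, *GAPDH*, *PGK1*, *PGAM1*, *ENO1* and *PKM* had log2 fold changes of −0.99, −0.84, −1.04, −1.12, −1.33 and −0.79. *GAPDH*, often used as a reference gene, was at 748 and 731 CPM at day 16 and 455 and 369 CPM at day 23. *LDHA*, which turns pyruvate into lactate (chromosome 11, 18394560 to 18408425), fell from 738 and 696 to 206 and 195 CPM, with a log2 change of −1.84 (SE 0.12, edgeR adjusted p = 8.2e-14). *PDK1*, a kinase that keeps pyruvate out of mitochondria, fell from 229 and 221 to 64.4 and 52.8 CPM. Some hypoxia-responsive genes outside glycolysis fell as well (*CA9*, *CA12* and *ANKRD37* were not called), with *BNIP3*, a mitophagy receptor, at 198 and 235 and then 55.5 and 61.8 CPM, *VEGFA*, an angiogenic factor, at 231 and 239 and then 99.2 and 111 CPM, and *ADM*, adrenomedullin, at 11.03 and 18.3 and then 2.88 and 4.57 CPM. *NDRG1* moved the other way, from 25.5 and 16.7 to 42.3 and 42.5 CPM. Other genes regulated by hypoxia were noticed after their values were seen, *P4HA1*, a collagen prolyl hydroxylase (264 and 271 to 72.8 and 61.7 CPM), and *AK4*, a mitochondrial adenylate kinase (103 and 111 to 20.1 and 16.5 CPM). The number called lower was 18 to 21 over the alternatives other than a fold minimum, and 14 of the 20 fell by at least 1 on the log2 scale. At day 31 the mean CPM lay between those of days 16 and 23 for 18 of the 20 genes called lower, for example *LDHA* at 386 and 353 CPM.

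Genes of the respiratory chain and of lipid synthesis were compared next. Among 33 nuclear-encoded subunits of the respiratory chain, edgeR called none, with an unadjusted p under 0.05 for 3, DESeq2 called none, and the median log2 fold change was 0.04, although 2 were called higher without day 16 replicate 2 and 3 lower without day 16 replicate 1. *ATP5F1B* of the ATP synthase, for instance, was at 207 and 192 and then 198 and 212 CPM. *PDK4*, a paralogue of *PDK1* chosen after its values were seen, rose from 40.6 and 43.7 to 133 and 132 CPM. Of 24 cholesterol synthesis genes 3 were called lower, *HMGCS1* and *IDI1* among them, and none higher, against 5.33% and 5.6% of all genes. In fatty acid synthesis, *GPAM* of triglyceride assembly rose from 38.04 and 45.3 to 109 and 109 CPM and *FADS1*, a desaturase, fell from 99.5 and 108 to 60.6 and 55.8 CPM, within a list of 15 with 2 called higher and 4 lower. Without day 16 replicate 1, 5 cholesterol genes were called lower. The fatty acid genes called lower were 1 without day 16 replicate 1 or day 23 replicate 1 and 2 without day 23 replicate 2, and 1 was called higher without day 16 replicate 2 or day 23 replicate 1.

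Cytosolic ribosomal protein genes were slightly lower as a group. Of 52 tested, 30 were called lower and none higher, with a median log2 fold change of −0.46. The largest falls were those of *RPL9*, from 137 and 175 to 78.9 and 88.4 CPM, and *RPL27*, from 124 and 184 to 86.01 and 84.8 CPM. The summed level was 16170 and 20518 CPM at day 16 and 13671 and 13365 CPM at day 23, so the day 16 libraries differed more from each other than the day 23 libraries did. The number called lower was 14 without day 16 replicate 2, 17 without day 23 replicate 1, 14 without day 23 replicate 2 and 39 without day 16 replicate 1. Ribosomal protein genes have many processed pseudogenes that can take or share reads. Of 231 small nucleolar RNAs, 9 (3.9%) were called lower and none higher, against 5.33% and 5.6% of all genes. Their median log2 fold change was −0.39 against −0.02 for all genes, so the share called lower does not show that they fell less.

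Some genes of cell division were lower, nearly all of them genes of the late cycle. Of 24 tested G2/M genes, 8 were called lower and none higher, with a median log2 fold change of −0.67. *ASPM*, a spindle protein, fell from 174 and 227 to 111 and 101 CPM, *CENPE*, a kinetochore motor, from 90.2 and 99.01 to 46.99 and 42.9 CPM, and *TPX2*, a spindle assembly factor, from 91.04 and 104 to 49.5 and 54.1 CPM. *MKI67* and *TOP2A* were also called, at log2 fold changes of −0.59 and −0.698. *MKI67* was not called without day 16 replicate 1 or day 23 replicate 1, nor *TOP2A* without day 16 replicate 2 or day 23 replicate 2. The number called lower was 4 without day 16 replicate 2, and 5 without either day 23 library. Among 24 G1/S and replication genes, *RRM2* alone was called, at 21.2 and 23.2 and then 8.64 and 5.49 CPM, and not without day 23 replicate 2. *MCM7*, a replicative helicase subunit, was at 84.1 and 81.6 and 76.3 and 84.8 CPM. Of 18 cell cycle inhibitors and p53 targets, 5 were called higher and none lower. *GDF15*, a stress-induced cytokine, rose from 0.634 and 0.123 to 5.43 and 14.3 CPM, *CDKN2B* from 1.27 and 0.862 to 4.77 and 5.14 CPM, and *CDKN1A* from 12.05 and 10.59 to 26.7 and 15.5 CPM, with *CDKN1C* and *ZMAT3* the other 2. Only 2 of the 5 were called in the fit of the 4 libraries alone, and 3 without any one library of days 16 and 23.

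Some genes of early embryonic cells fell while others of the same kind were not called. Of 18 tested, 5 were called lower and none higher. Beside *LIN28A*, *TRIM71*, another let-7 target and RNA-binding protein, fell from 162 and 142 to 69.5 and 54.3 CPM, *SALL4*, a stem cell transcription factor, from 84.7 and 73.5 to 33.4 and 38.3 CPM, and *L1TD1* from 27.01 and 34.7 to 8.98 and 9.95 CPM. *HMGA2* was at 815 and 1017 and then 946 and 920.1 CPM and *LIN28B* at 116 and 126 and then 88.2 and 72.3 CPM, and neither was called. *POU5F1* had 0, 0, 0 and 1 counts in the 4 libraries. How reads that fit more than 1 place were counted was not given, so these counts need not mean that the gene was silent. *IGF2BP3* and *L1TD1* were not called without day 16 replicate 2, nor *IGF2BP3* without day 23 replicate 1.

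Matrix genes changed in both directions, with some fibrillar and fibril-associated collagens higher and several basement membrane genes lower. Of 33 tested collagen genes 8 were called higher and 7 lower. *COL3A1*, a fibrillar collagen, rose from 309.5 and 509 to 957 and 953 CPM (log2 fold change 1.22, SE 0.15). *COL12A1*, a collagen that attaches to fibrils, rose from 2.41 and 2.71 to 14.6 and 15.1 CPM, and *COL14A1*, of the same class, from 6.21 and 5.295 to 14.1 and 18.4 CPM. Other fibrillar chains fell, with *COL2A1* of cartilage going from 288 and 262 to 79.6 and 90.7 CPM. The same held for type IV collagen, the network of basement membranes. *COL4A1* fell from 125 and 126 to 57.7 and 54.2 CPM and *COL4A2*, its partner chain on chromosome 13, from 227 and 204 to 79.4 and 71.7 CPM. *COL6A3* had the largest fall of the list, from 767 and 609.7 to 124 and 124 CPM (log2 fold change −2.47, SE 0.15, edgeR adjusted p = 4.2e-14), whereas *COL6A1*, which forms the same trimer, was at 109 and 71.2 and then 136 and 169 CPM and was called higher, although not without day 16 replicate 2 or day 23 replicate 2. *COL1A1* was not called, at 256 and 214 and 261 and 299 CPM. The collagen counts were 5 higher and 4 lower without day 23 replicate 2.

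Laminins changed by chain. *LAMB1*, the beta chain of laminins in most early basement membranes, fell from 609 and 710.3 to 186 and 191 CPM (log2 fold change −1.805, SE 0.13), and *NID1*, which links laminin to type IV collagen, from 54.4 and 54.4 to 12.97 and 10.5 CPM. *HSPG2*, the proteoglycan perlecan, fell from 806 and 640.2 to 431 and 403 CPM. *LAMB3*, a chain of the laminin of epithelial anchorage, rose from 3.17 and 0 to 19.4 and 22.4 CPM. Integrins, the receptors for matrix proteins, were among the genes called higher, with *ITGA2* going from 22.7 and 24.3 to 51.98 and 48.5 CPM, *ITGA3* from 92.9 and 67.9 to 134 and 130.0 CPM and *ITGB6* from 1.52 and 0.493 to 4.77 and 4.46 CPM. In the whole list of 30, 9 were called higher and 3 lower, and without day 16 replicate 2 or with DESeq2 the number lower was 6 and 5. *ITGA3* was not called without day 16 replicate 2, nor *ITGB6* in the fit of the 4 libraries alone.

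**Figure D3:**
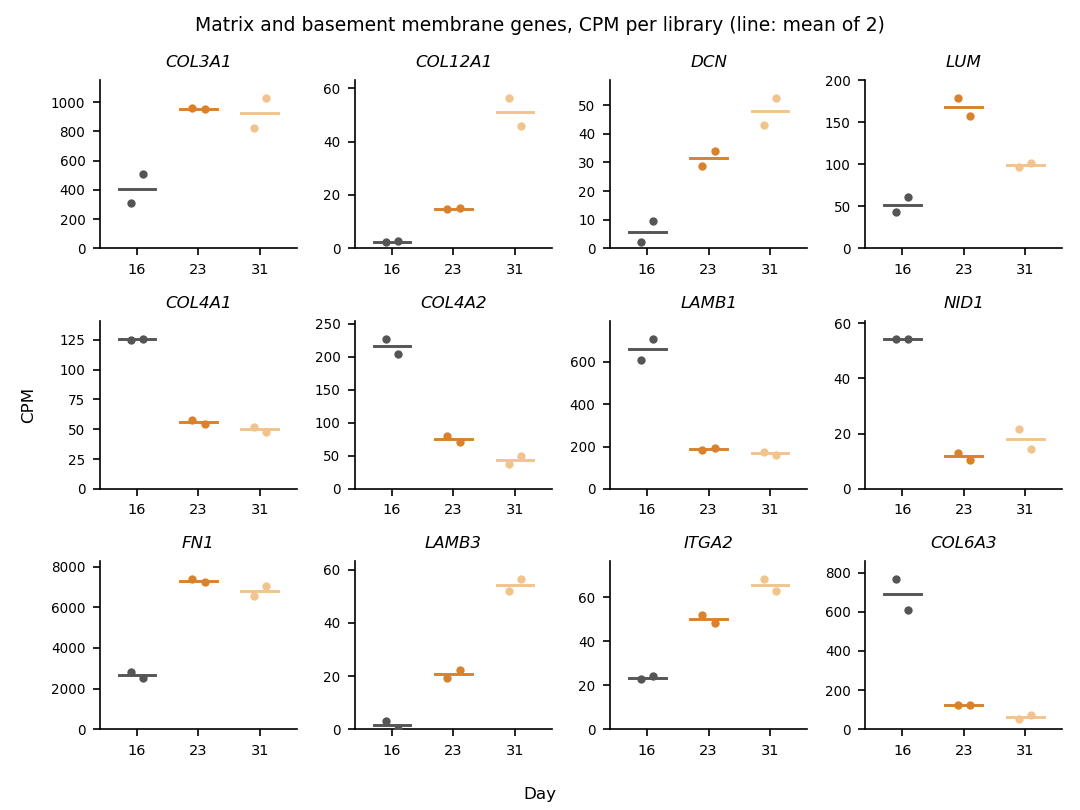
Each panel shows one matrix gene, with CPM on the y axis from 0 and a point per library at days 16, 23 and 31 on the x axis, and a line at the mean of 2 libraries. *COL3A1*, *COL12A1*, *DCN*, *LUM*, *FN1*, *LAMB3* and *ITGA2* have both day 23 points above both day 16 points, and *COL4A1*, *COL4A2*, *LAMB1*, *NID1* and *COL6A3* have them below.

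Several fibroblast markers rose beside these collagens, 3 of which are also on the marker list. Of 10 tested, 5 were called higher and 2 lower, and their summed level was 978 and 1210 CPM at day 16 and 1853 and 1848 CPM at day 23, with *COL3A1* the most abundant. *DCN* rose from 2.28 and 9.48 to 28.8 and 34.1 CPM, *LUM* from 42.99 and 60.7 to 179 and 157 CPM and *POSTN* from 32.97 and 42.5 to 159 and 159.8 CPM. *TCF21* had 0 counts in both day 16 libraries and was at 1.55 and 1.71 CPM at day 23, a call lost without either day 16 library and in the fit of the 4 libraries alone. *PRRX1*, a mesenchymal homeobox gene, went the other way, from 32.8 and 45.4 to 3.77 and 3.66 CPM. *COL1A2* was called lower too, but not without day 16 replicate 2, without day 23 replicate 2 or without TMM scaling, and none of the 10 was at 0 in all 4 libraries. The part of fibroblast-like cells in the sort in the collagen result was not tested.

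Of 31 epithelial junction and polarity genes 3 were called higher, *CLDN4*, *CLDN9* and *TJP1*, and 2 lower, *EPCAM* and *CLDN1*, against 5.6% and 5.33% of all genes. *CDH1* (E-cadherin) was at 629 and 494 and then 659 and 579.6 CPM and was not called. *CLDN4* rose from 139 and 113 to 209.6 and 219 CPM. *KRT8* and *KRT18*, keratins of simple epithelium, were not called by edgeR, and *KRT17* was the only one of 14 keratins that was, at 0 counts in both day 16 libraries and 6.54 and 2.74 CPM at day 23. DESeq2 also called 1 keratin lower. Of 15 mesenchymal state genes 2 were called higher and 4 lower. *CDH2* (N-cadherin) rose from 268 and 274 to 412 and 404 CPM while *SPARC* fell from 926 and 881 to 582 and 574 CPM. Without day 16 replicate 1, 5 junction genes and 1 mesenchymal state gene were called higher, and 1 of the latter was without day 23 replicate 1. *EPCAM* was not called without day 16 replicate 2 or day 23 replicate 2, nor *TJP1* without either day 23 library.

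Insulin-like growth factor genes were called higher in 8 of 18 cases and lower in 1, against 5.6% and 5.33% of all genes, with a median log2 fold change of 0.51. Among the ligands, *IGF2* rose from 1.01 and 1.601 to 7.43 and 4.69 CPM, a call lost in the fit of the 4 libraries alone. *H19*, the non-coding RNA of the same imprinted locus on chromosome 11, rose from 18.9 and 17.5 to 143 and 159.8 CPM (log2 fold change 3.06, SE 0.21, edgeR adjusted p = 4.4e-13). The receptors changed less. *IGF1R* rose from 384 and 381 to 611 and 601 CPM and *INSR*, the insulin receptor, had a log2 fold change of 0.48, a call lost without day 16 replicate 2 or day 23 replicate 1. The binding proteins that carry and sequester these ligands divided. *IGFBP3* rose from 2.92 and 5.05 to 48.5 and 42.99 CPM and *IGFBP5* from 228 and 192 to 318 and 357 CPM, while *IGFBP2* fell from 116 and 95.7 to 26.8 and 39.6 CPM. *PAPPA*, a protease that cleaves binding proteins, rose from 6.85 and 11.8 to 33.1 and 31.2 CPM. At day 31, *IGFBP3* was at 78.4 and 55.5 CPM and *H19* at 202 and 318 CPM.

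In the TGF-beta, activin and BMP list, 5 of 41 tested were called higher and 5 lower, against 5.6% and 5.33% of all genes. *BMP2* rose from 30.9 and 28.8 to 129 and 118 CPM and *BMP4* from 59.6 and 49.5 to 161 and 143 CPM, and *BMP7* fell from 23.1 and 25.1 to 5.54 and 5.03 CPM. Among the antagonists, *GREM1* rose from 50.98 and 42.98 to 105 and 92.9 CPM and *NOG* fell from 28.8 and 25.5 to 4.43 and 6.52 CPM, the latter a call lost without day 23 replicate 1. The transcriptional readouts *ID1*, *ID2* and *ID3* were not called, with *ID1* at 837 and 882 and then 1001 and 883 CPM. Only 2 members of the list were called lower without day 23 replicate 1.

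Of 47 WNT genes 5 were called higher and 6 lower, against 5.6% and 5.33% of all genes, and the other 36 were not called. The ligand *WNT7B* rose from 0.127 and 0.123 to 5.76 and 2.86 CPM and *WNT11* fell from 14.3 and 7.39 to 3.103 and 1.49 CPM. Frizzled receptors *FZD1* and *FZD5* fell from 159.6 and 143 to 57.97 and 77.2 CPM and from 187 and 150.5 to 73.7 and 62.6 CPM, whereas the co-receptor *LRP5* and *ZNRF3*, a ligase that removes receptors, rose. *AXIN2*, a common readout of the pathway, was not called, at 107 and 60.8 and 63.8 and 62.5 CPM.

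Among 22 Notch genes, 3 were called higher and 3 lower. *DLK1*, a non-canonical ligand from an imprinted locus (chromosome 14, 100725705 to 100738224), had the smallest adjusted p of the list, going from 12.05 and 11.9 to 119.8 and 121 CPM (log2 fold change 3.33, SE 0.16, edgeR adjusted p = 1.5e-16). The receptor *NOTCH1* rose from 46.4 and 60.3 to 121 and 98.3 CPM, while the ligand *JAG1* and the target *HES1* fell from 141 and 136 to 83.9 and 71.8 CPM and from 169 and 173 to 101 and 103 CPM. In the hedgehog list of 14, the ligand *SHH* rose from 5.58 and 9.97 to 28.2 and 24.01 CPM and the effector *GLI3* fell from 141 and 116 to 60.96 and 69.2 CPM, with 3 called higher and 2 lower. Without day 23 replicate 1, 5 Notch genes were called lower, and without day 23 replicate 2, 1 hedgehog gene was called higher and 1 lower.

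Of 32 FGF and ERK feedback genes, 4 were called higher and 2 lower. The ETS factors *ETV1* and *ETV5* rose from 154 and 166 to 359 and 369.9 CPM and from 5.96 and 9.61 to 40.9 and 37.7 CPM. The ERK phosphatases went the other way, with *DUSP5* falling from 33.6 and 22.2 to 2.44 and 2.74 CPM and *DUSP6* from 57.9 and 83.1 to 32.7 and 33.3 CPM. In the EGF receptor family (15 tested, 1 higher, 3 lower), *ERBB3* rose from 53.9 and 49.6 to 136 and 127 CPM and *ERBB4* fell from 131 and 147 to 62.2 and 59.6 CPM. *TGFA*, a ligand of the EGF receptor, was at 5.71 and 7.63 CPM at day 16 and had 0 counts in both day 23 libraries, at least 19.8-fold lower. Of 16 YAP and TAZ targets, 2 were called higher and 5 lower, with *CCN1* falling from 464 and 472 to 304 and 295 CPM. Without day 23 replicate 1, 2 FGF genes were called higher, and 3 YAP and TAZ targets lower, against 2 of the latter without day 23 replicate 2. *F3*, 1 of the 2 YAP and TAZ targets called higher, was not called without day 16 replicate 2 or in the fit of the 4 libraries alone, and *LATS2* and *TEAD1*, called lower, were not called without day 16 replicate 1.

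Some genes of retinoic acid handling rose, with 5 of 18 tested called higher, against 5.6% of all genes, none lower and a median log2 fold change of 0.64. *ALDH1A1*, which makes retinoic acid, rose from 24.9 and 28.1 to 102 and 93.5 CPM, and *CYP26B1*, which degrades it, from 0.507 and 1.97 to 12.2 and 8.92 CPM. *RARA*, a receptor, rose from 27.01 and 19.7 to 44.9 and 54.9 CPM. On leaving out day 23 replicate 1, *CRABP2* and *STRA6* were not called, leaving 3. *STRA6* was lost also with DESeq2, upper-quartile factors and stricter filters, and without day 16 replicate 2, day 23 replicate 2 or either day 31 library.

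Of 28 tested endoderm and foregut transcription factors, 7 were called higher and 3 lower. *HHEX*, an early factor of thyroid and liver, rose from 95.99 and 133 to 362 and 365 CPM (log2 fold change 1.67, SE 0.14), and *FOXA1*, a pioneer factor of gut epithelia, from 0 and 0.616 to 11.6 and 4.802 CPM. *ISL1* rose from 81.2 and 107 to 158 and 167 CPM. *HNF4G*, *ONECUT2* and *SOX9* were called at lower levels and not in the fit of the 4 libraries alone, where 4 members were called higher. *HNF4G* was lost also without either day 16 library or day 23 replicate 1, *ONECUT2* with DESeq2 and without 4 single libraries, and *SOX9* without day 16 replicate 2 or day 23 replicate 2. *PROX1*, *IRX3* and *HES1* were called lower, the first 2 of them not without day 16 replicate 1 or day 23 replicate 2, and *IRX3* not without day 23 replicate 1. None of 23 tested HOX genes was called by edgeR, with an unadjusted p under 0.05 for 1 and none called by DESeq2, although 1 was called lower in the fit of the 4 libraries alone. *HOXA3*, of the pharyngeal region, was at 38.5 and 50.9 and then 49.4 and 45.96 CPM.

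Transcripts of several plasma proteins usually made by liver rose. Of 13 tested liver markers, 6 were called higher, and none lower, with a summed level of 18.3 and 15.5 CPM at day 16, 90.9 and 79.0 CPM at day 23 and 453 and 415 CPM at day 31. *SERPINA1*, alpha-1 antitrypsin, rose from 0.127 and 0.369 to 15.1 and 7.89 CPM, *FGB*, the beta chain of fibrinogen, from 1.39 and 0 to 12.1 and 14.1 CPM and *TTR*, the thyroid hormone carrier transthyretin, from 3.42 and 2.46 to 19.8 and 12.6 CPM. The defining liver product did not appear with them, since *ALB* was at 0.254 and 0.985 CPM at day 16 and 0.111 and 0 CPM at day 23, and *AFP* was not called, at 2.92 and 7.63 and 7.09 and 13.6 CPM. At day 31 *ALB* was at 23.8 and 21.3 CPM. *APOB* and *TTR* were not called by DESeq2, which called 4 higher, and *APOB* was lost on leaving out any of 5 libraries, both of day 23 included. Without day 16 replicate 1, 2 liver markers were called lower. The part of liver-like cells in these values was not tested.

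Of 7 tested markers of distal lung *SFTPB* alone was called, while *SFTPC* was at 0 in all 4 libraries, *NAPSA* was at 7.101 and 0.493 and 3.66 and 3.89 CPM and *SFTPA1* was at or under 2 counts in each, and without day 16 replicate 1, 3 members were called higher. Of 10 neuroendocrine and C cell genes, *PCSK2* and *CALCA* were called, the latter at 0.127 and 0.246 and then 1.33 and 2.29 CPM and not without day 23 replicate 2 or in the fit of the 4 libraries alone. *CHGA*, the general marker of secretory granules, was at 1.14 and 1.601 and then 1.11 and 1.03 CPM.

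Complement genes moved in both directions. Of 13 tested 3 were called higher and 2 lower. *C5*, a component of the terminal pathway, fell from 313 and 335 to 26.6 and 44.6 CPM (log2 fold change −3.19, SE 0.21, edgeR adjusted p = 1.4e-13). *CFI*, a protease that inactivates C3b and C4b, rose from 0 and 2.22 to 25.5 and 29.2 CPM, *C3*, the central component, from 5.199 and 3.08 to 27.4 and 16.7 CPM and *SERPING1*, the C1 inhibitor, from 107 and 99.6 to 164 and 171 CPM. *CD55*, a complement regulator on the cell surface, fell from 187 and 158 to 86.7 and 80.3 CPM. In the inflammation and NF-kB list (21 tested, 3 higher, 5 lower), *NFKBIA*, the feedback inhibitor of NF-kB, fell from 124 and 138 to 44.7 and 53.3 CPM, and *CCL2*, a chemokine, rose from 0.127 and 1.48 to 6.43 and 5.37 CPM. On leaving out day 23 replicate 2 and in the fit of the 4 libraries alone, 3 of that list were called lower. Of 25 interferon-stimulated genes 3 were called higher and 2 lower, among them *B2M*, the light chain of MHC class I, which fell from 127 and 155 to 75.7 and 89.1 CPM. In that list 1 was called higher in the fit of the 4 libraries alone, and 1 lower without day 16 replicate 1 or day 23 replicate 1.

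Genes of ion and water transport, on which follicular cells depend, were called higher in 9 of 29 cases and lower in 3. *AQP1*, a water channel, rose from 3.93 and 2.22 to 13.2 and 17.03 CPM, *KCNJ16*, a potassium channel, from 9.64 and 5.91 to 27.9 and 18.98 CPM and *ATP1B1*, a subunit of the sodium pump, from 155 and 169 to 223 and 267 CPM. *ANO1*, a chloride channel, went from 0.127 and 0.246 to 4.101 and 2.63 CPM, and *SLC4A7*, a bicarbonate transporter, fell from 334 and 318 to 177 and 158 CPM. Without day 23 replicate 2, 5 were called higher and 1 lower, *ATP1B1* among those lost, and *ANO1* was lost in the fit of the 4 libraries alone. Of 24 chaperones and sensors of the endoplasmic reticulum, *CANX* (calnexin, 363 and 398 to 603 and 572 CPM) and *SYVN1* were called higher and *ERO1A* lower, shares near those of all genes (5.6% and 5.33%), and *HSPA5* was not called. *SYVN1* was lost without day 16 replicate 2 or either day 23 library, and *ERO1A* without day 23 replicate 1. Among 19 genes of the ATF4 stress response, *DDIT4* fell from 39.8 and 21.2 to 7.65 and 5.72 CPM and *SLC7A11* rose from 13.3 and 16.3 to 31.7 and 25.2 CPM, with *ATF3* the other member called, against 5.6% of all genes called higher and 5.33% lower. Of 20 cilium genes, *TPPP3* and *DNAH9* were called lower, neither of them without day 23 replicate 2, nor *TPPP3* without day 16 replicate 1, nor *DNAH9* without day 16 replicate 2 or in the fit of the 4 libraries alone.

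Markers of other cells that the sort could hold were mostly at low levels. Of 14 cardiac and striated muscle genes, 5 were called lower and *DES* higher, but none was called lower without day 23 replicate 2, and 3 were without day 16 replicate 2. *TTN*, the largest contributor, was at 1545 and 1753 and then 1282 and 1221 CPM, and *ACTC1*, which DESeq2 did not call, at 28.1 and 16.99 and then 8.42 and 2.52 CPM, while *NKX2-5*, the cardiac factor, had 0 counts in both day 23 libraries. *SYNM* was the single smooth muscle marker of 7 that was called, falling from 92.9 and 67.1 to 10.1 and 7.43 CPM. *DCX* was the only forebrain and neural marker of 15 called by edgeR, from 0.761 and 3.08 to 13.1 and 18.98 CPM, and *TEK* the only endothelial marker of 9, from 0.888 and 2.96 to 9.97 and 13.7 CPM. With DESeq2, 2 forebrain and neural markers were called higher, and with upper-quartile factors 1 was called lower. Airway basal markers went both ways, with *KRT17* higher and *TP63* lower (15.2 and 10.59 to 1.995 and 4.23 CPM), the latter not without day 16 replicate 1 or day 23 replicate 1. Of 8 goblet and secretory markers *MUC5AC* was called, from 0 counts at day 16 to 0.333 and 0.800 CPM, which is close to the floor, a call also lost on leaving out any of 5 libraries and in the fit of the 4 libraries alone. None of the tested blood (4) or intestine and pancreas (6) markers was called by edgeR, with an unadjusted p under 0.05 for 1 of these 10 and none called by DESeq2, although 1 blood marker was called lower in the fit of the 4 libraries alone. Of 5 parathyroid and thymus markers *GCM2* fell from 13.4 and 10.3 to 4.43 and 2.86 CPM, a call lost on leaving out any of 6 libraries.

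Thyroid genes were measured in the same fit. Of 15 tested, 7 were called higher and 3 lower. *DIO2*, the deiodinase that makes active thyroid hormone, rose from 45.6 and 44.2 to 242 and 227 CPM (log2 fold change 2.38, SE 0.14), and *DUOX2*, which supplies hydrogen peroxide for iodination, from 5.07 and 2.46 to 25.5 and 14.4 CPM. *FOXE1*, a transcription factor of thyroid precursors, fell from 897 and 630.5 to 349.6 and 324 CPM.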

How the data were processed

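RNA of sorted cells was sequenced in 10 libraries, 2 for each of 5 days, and the 4 libraries of days 16 and 23 were compared. The authors deposited whole-number counts per gene, one table per library, made from trimmed reads with HISAT2 and HTSeq on GRCh38.p13 (Trimmomatic is also named in the submitters' processing notes). Tool versions and the strand setting of the counting were not given in the sources used here, so a gene and its antisense partner cannot be told apart. The labels name no batch and do not say whether same-numbered libraries share a culture, so p-values measure the spread between these libraries.

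From the counts, genes that reached 5 counts in 2 or more libraries were fitted in edgeR 4.0.16 (limma 3.58.1, R 4.3.3) with TMM factors and 1 mean per day over all 10 libraries, and day 23 was set against day 16 with the two-sided quasi-likelihood test and Benjamini-Hochberg adjustment at 0.05 over all genes tested. Where a gene was at or under 3 counts in both libraries of a day, the fitted fold change depends on edgeR's prior count and a bound against 3 counts per library is given instead. Replicates were compared before use, with a chi-square per degree of freedom of 13.7 at day 16 and 9.16 at day 23, so no pair was one library deposited again. Named genes were the members of 50 lists (965 of 1013 symbols tested) and, among called genes with a mean of at least 5 CPM and no overlap between the days, the 15 largest rises and falls by fold and the 10 largest by CPM. Members and lists were chosen with earlier results of these data known. Gene positions are from GENCODE 44 on GRCh38 and promoters from RefSeq on GRCh38.p14. Alternatives were DESeq2 1.42.0, other scaling, other filters, the 4 libraries alone, a block for replicate number, a fold minimum and each library left out in turn. On simulated counts of day 16 and day 23 (20168 genes, 200 changed), edgeR recovered 42% of changes of 1 and 78% of changes of 2 on the log2 scale, with 3 false among 123 calls. DESeq2 recovered 43% and 80% of them, with 14 false among 137 calls. Apart from the 200 genes, all days shared 1 mean per gene, whereas 10.9% of genes were called in the data. These rates therefore describe the simulated setting and need not hold for the data. Figures were drawn with matplotlib 3.10.9 in Python 3.11.15. Some single genes are not reported here.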

Additional observations from a re-analysis of the deposited data

How the results depend on the processing

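The number of genes called at day 23 against day 16 was 2296 (1176 higher, 1120 lower), and 2123 to 2703 under every alternative except the fold minimum and the libraries left out at days 16 and 23. DESeq2 called 2581, the library totals without TMM 2392, upper-quartile factors 2299, no filter 2659 and the 4 libraries alone 2220. The share called higher was 51.2% with TMM, 57.2% without it and 46.3% with upper-quartile factors. A minimum of 1 on the log2 scale left 1183 genes, 548 higher and 635 lower. Leaving out one library at a time gave 1401 to 2477 called, 757 to 1273 higher and 638 to 1204 lower. The lowest counts came without a day 23 library, at 1510 called and 757 higher without replicate 1, and at 1401 called, 763 higher and 638 lower without replicate 2, where the lone day 23 library is assumed to vary like the other days.

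With the replicate block 2703 genes were called, 1379 higher and 1324 lower. The numbers did not pair the libraries, since deviations of same-numbered libraries of days 16 and 23 correlated at 0.011 over genes (−0.032 to 0.020 over all pairs of days). Of the 320 called genes that belong to a list or to the rule for named genes, none changed direction under any alternative, and the calls lost were 11 with DESeq2, 10 without TMM, 35 in the 4 libraries alone and 44 to 83 without one library of days 16 or 23. Depth limits genes near the floor of 3 counts. With 2 libraries a day the simulation recovered 42% of changes with a log2 size of 1. It changed a smaller share of genes than was called in the data, so this is not the power of the comparison.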

Other observations

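Transcripts of the imprinted interval of chromosome 15 were noticed after their values were seen. *SNHG14*, the long host RNA of this interval (chromosome 15, 24978583 to 25420336 on the + strand of GRCh38), fell from 630.2 and 674 CPM at day 16 to 342 and 375 CPM at day 23 (log2 fold change −0.86, edgeR adjusted p = 7.5e-06). *IPW*, a non-coding RNA of the same interval, fell from 144 and 174 to 59.1 and 60.2 CPM, and *PWAR6* and *PWARSN* had log2 fold changes of −1.204 and −0.995. Of the 21 tested SNORD116 small nucleolar RNAs, which are cut from the introns of this host RNA, 20 had a log2 fold change below 0, with a median of −1.37, although only *SNORD116-20* and *SNORD116-21* were called lower, against 5.33% of all genes. The summed level of these 21 SNORD116 genes was 216 and 230 CPM at day 16 and 82.8 and 76.5 CPM at day 23, near-identical copies may share reads, and the family was chosen for its values. Over all 231 tested small nucleolar RNAs, 9 were called lower, none higher, and the median was −0.39. The neighbouring genes *SNRPN*, *NDN*, *MAGEL2* and *UBE3A* were not called. *KCNQ1OT1*, the antisense RNA of another imprinted locus, fell from 1467 and 1424 to 905 and 877 CPM.

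Of 424 tested miRNA genes, 4 were called higher and 2 lower, 1.4% against 10.9% of all genes, with a median log2 fold change of −0.07. All 424 together reached only 515 and 517 CPM at day 16 and 456 and 529 CPM at day 23. At such low counts few changes can be called, so the smaller share does not show that miRNA genes changed less. Single genes below were noticed after their values were seen. *MIR99AHG*, a long host transcript of microRNAs, rose from 22.1 and 28.6 to 146 and 141 CPM, a log2 fold change of 2.502. *CTSB*, the lysosomal protease cathepsin B, rose from 137 and 116 to 449 and 398 CPM, *CXCL12*, a chemokine, from 51.2 and 33.9 to 110 and 122 CPM, and *CHRNA7*, a nicotinic receptor subunit, fell from 85.6 and 107 to 22.1 and 21.7 CPM.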
